A study of Mus musculus with 2 samples.

Results

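Cyp2f2 Cpxm1 Saa3 fibroblasts were examined in single-cell RNA data from imiquimod-treated mouse skin: 1463 cells of 19370 deposited barcodes, 958 of 8054 in the library of mice given Shi-Bi-Man plus imiquimod (SBM library) and 505 of 11316 in the library of mice given imiquimod alone (IMQ library). The study profiled dorsal skin of C57BL/6 mice aged 7 weeks by 3' sequencing. It asked how Shi-Bi-Man, a natural product, acts in imiquimod-induced psoriasis, a model in which a Toll-like receptor agonist applied to skin elicits IL-17-dominated inflammation. Both groups received imiquimod, each is 1 library, and the labels used here give neither sex, dose, route, time nor the number of animals behind a library. The members were chosen by a rule on measured values. A cell had to have at least 200 genes and at most 20% mitochondrial counts, and Col1a1, Col1a2 and Col3a1 together at 50 or more per 10000 counts. It had to have no Pecam1 or Ptprc count and fewer than 2 of the dermal papilla genes Rspo3, Sox18, Inhba and Corin. Among these gated fibroblasts, 4072 in all, a member had counts of at least 2 of the 5 genes Cyp2f2, Cpxm1, Saa3, Mmp3 and Serpina3n, and of more of them than of 3 other sets of 5 fibroblast genes.

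Dermal fibroblasts make the collagen scaffold of skin, and they also act as sentinels: IL-17, TNF and IL-1 induce in them acute-phase proteins, chemokines and metalloproteinases. Saa3 encodes a serum amyloid A made outside the liver in inflamed tissue, Serpina3n a secreted inhibitor of leukocyte proteases, and Mmp3 stromelysin-1, which degrades proteoglycans and activates other proteases. Cyp2f2 is a cytochrome P450 best known from mouse airway club cells, where it oxidises naphthalene, and Cpxm1 is a secreted member of the carboxypeptidase family that binds collagen. In the GRCm38 annotation Cyp2f2 lies at chr7:27119909-27133660 on the plus strand and Saa3 at chr7:46711998-46715700 on the minus strand. Cpxm1 lies at chr2:130390775-130397574 (minus), Mmp3 at chr9:7445822-7455975 (plus) and Serpina3n at chr12:104406729-104414329 (plus).

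The members had 2455226 counts in the SBM library and 1421511 in the IMQ library, with a median of 2430.5 and 2642 counts and 1113 and 1179 genes per cell. With 1 library per group no test between groups was possible. Intervals below are exact 95% intervals (Poisson for a count, Clopper-Pearson for a share, conditional binomial for a ratio) and cover counting error only, and a ratio is a log2 ratio of SBM over IMQ. The libraries shared 49 barcodes, of which 0 were members in both. The pan-fibroblast list (Pdgfra, Dcn, Lum and 7 others) summed to 54381 CPM (counts scaled to a total of 1000000) in SBM members and 55015 CPM in IMQ members, with none of its 10 genes at 0, against 30284 and 30806 CPM in the other gated fibroblasts.

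The members of the 2 libraries lay mostly in different clusters. Clustering of all gated fibroblasts without the genes of the rule gave 14 clusters. Cluster 0, led by Cldn10, Ppp1r14a, Sectm1a and Cpz, held 582 SBM members (60.8%) and 52 IMQ members (10.3%). Cluster 4, led by Saa3, Tnc, Chl1 and Mmp11, held 13 SBM members (1.36%) and 230 IMQ members (45.5%). Cluster 1, led by Myoc, Hmcn2 and Gpx3, held 87 SBM members (9.08%) and 99 IMQ members (19.6%). These leading genes differed between the libraries themselves, and with 1 library per group a cluster held mostly by 1 library may be that library, so the cluster sizes are not read as a change in composition. At a coarser resolution of 0.3 a single cluster led by Gm12407, Sectm1a and Cyp2f2 held 72.2% of SBM members and 60.2% of IMQ members. Values within clusters 0 and 1, the only clusters with at least 50 members in each library, are therefore given beside the main ones. Cluster 3, led by Magi2, Airn, Meg3 and Kcnq1ot1, of which several are nuclear noncoding RNAs, held 148 SBM members (15.5%) and 10 IMQ members (1.98%). Clusters 7, 9, 11, 12 and 13 were led by genes of keratinocytes, leukocytes, mural cells, sebocytes and Schwann cells and held 55 SBM members and 32 IMQ members in all.

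Members took a larger share of the SBM library. They were 12.1% of its retained cells (958 of 7946, interval 11.4% to 12.8%), against 4.58% in the IMQ library (505 of 11019, 4.20% to 4.99%), a log2 ratio of 1.40 (1.24 to 1.55). Within gated fibroblasts, which were themselves more numerous in the SBM library, the shares were 41.4% (958 of 2315) and 28.7% (505 of 1757), a log2 ratio of 0.53 (0.37 to 0.68). Because the rule counts detected genes, it was repeated on cells thinned to 1000 counts, which gave 38.6% (761 of 1972) and 26.8% (420 of 1565). The other fibroblast sets did not all move this way. The Gpx3 Thbs4 Myoc set was 14.3% of gated fibroblasts in the SBM library and 31.0% in the IMQ library, and the Igfbp2 Mme Sema3a set 8.29% and 2.96%. In thinned T cells, which should lack these genes, 1 of 90 SBM cells and 6 of 968 IMQ cells had at least 2 of the 5, and in thinned keratinocytes 6 of 1413 SBM cells and 3 of 970 IMQ cells did.

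Thresholds set the edge of the set. Members with exactly 2 of the 5 genes numbered 205 in the SBM library and 100 in the IMQ library, while 493 SBM and 456 IMQ gated cells had 1 of them and stayed out. A further 240 SBM and 206 IMQ cells had 2 of the 5 but as many or more genes of another set. Counts of the 5 genes were 27.9 per 10000 in SBM members with 2 genes and 10.99 in SBM cells with 1, and 30.8 and 8.88 in the matching IMQ cells. At the other end, 13 SBM members and 91 IMQ members had all 5 genes. The commonest combination in SBM members was Cyp2f2, Cpxm1, Mmp3 and Serpina3n without Saa3 (342 cells, 35.7%). In IMQ members it was Cpxm1, Mmp3 and Serpina3n (100 cells, 19.8%), followed by all 5 genes (91 cells, 18.0%).

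Of the 5 genes that chose these cells, 4 were common in the members of both libraries, but Saa3, which also gives the cells their name, was rare in SBM members. Their levels are a description, with no test. Saa3 was found in 29 of 958 SBM members (3.03%, 2.04% to 4.32%) and in 213 of 505 IMQ members (42.2%, 37.8% to 46.6%). Its level was 47.7 CPM (39.4 to 57.1) in SBM members and 2539.6 CPM (2457 to 2624) in IMQ members, a log2 ratio of -5.73 (-6.01 to -5.47). A single SBM cell held 67 of the 117 Saa3 counts of its library, and without it the level there was 20.4 CPM and the ratio -6.95. Retained keratinocytes had Saa3 in 0.441% of SBM cells and 3.23% of IMQ cells, at median depths of 3724 and 3781 counts. Since Saa3 helped choose the members, no difference is read from these shares. The name thus goes against the values of most SBM members, which are called here by the rule.

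Cyp2f2 went the other way. It had 1254.5 CPM in SBM members (590 cells with a count) and 452 CPM in IMQ members (229 cells), a log2 ratio of 1.47. Since Cyp2f2 too helped choose the members, this ratio is a description only. Cpxm1 had 1706 CPM in SBM members and 2460.1 CPM in IMQ members (-0.53), with a count in 89.5% and 90.1% of them. Serpina3n, whose family has near-identical neighbours so that its counts are uncertain between copies, had 1598 and 2328 CPM (-0.54). Mmp3 had 1439.8 CPM in SBM members and 1769 CPM in IMQ members (-0.30). These 3 genes were thus in most members of each library, at levels within 1.5-fold of each other. Mmp3 and Serpina3n were not particular to members. The Igfbp2 Mme Sema3a set had Mmp3 in 62.0% of SBM cells and 44.2% of IMQ cells, and Serpina3n in 63.0% and 59.6%.

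**Figure D1:**
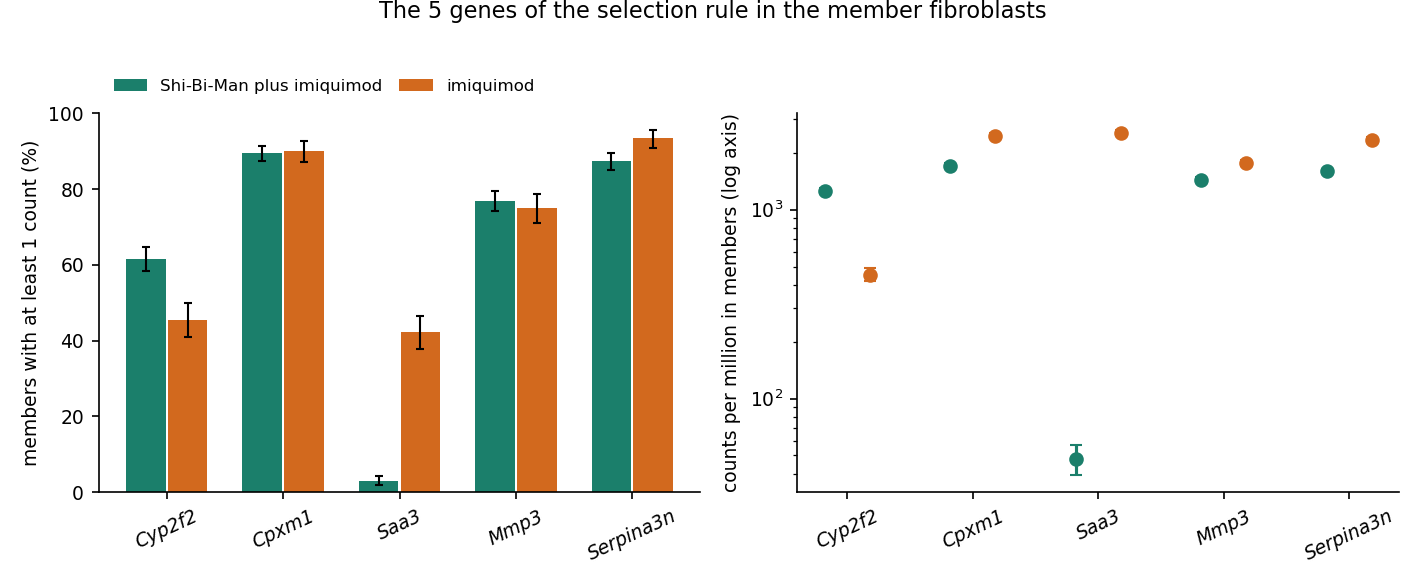
Left, share of members with at least 1 count of each gene of the selection rule (%), with exact binomial 95% intervals. Right, level in members in CPM on a log axis with Poisson 95% intervals. Shi-Bi-Man plus imiquimod is on the left of each pair. Saa3 stands apart, at 47.7 CPM in SBM members and 2539.6 CPM in IMQ members, while Cyp2f2 is higher in SBM members.

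Promoters are shown for Saa3 and Cyp2f2, genes of the rule whose levels are a description only. Outside the rule they are shown for Lcn2, a lower acute-phase gene, and Cxcl12, the most abundant chemokine among the lower genes. All are RefSeq sequences of build GRCm38.p6, from 250 bases before to 50 after the annotated start, read 5' to 3' on the gene's strand. Capitals mark matches on either strand to TTGCNNAA (a C/EBP pattern) or TGANTCA (AP-1). They also mark, on either strand, GGG and CC with any 5 bases between them (a loose kappaB pattern).
Saa3 (chr7:46715627-46715926, minus): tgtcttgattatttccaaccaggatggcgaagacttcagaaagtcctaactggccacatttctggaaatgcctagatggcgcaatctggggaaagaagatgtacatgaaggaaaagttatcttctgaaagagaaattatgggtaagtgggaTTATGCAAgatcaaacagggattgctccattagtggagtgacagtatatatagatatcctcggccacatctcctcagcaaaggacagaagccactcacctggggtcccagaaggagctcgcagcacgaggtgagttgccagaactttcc
Lcn2 (chr2:32387690-32387989, minus): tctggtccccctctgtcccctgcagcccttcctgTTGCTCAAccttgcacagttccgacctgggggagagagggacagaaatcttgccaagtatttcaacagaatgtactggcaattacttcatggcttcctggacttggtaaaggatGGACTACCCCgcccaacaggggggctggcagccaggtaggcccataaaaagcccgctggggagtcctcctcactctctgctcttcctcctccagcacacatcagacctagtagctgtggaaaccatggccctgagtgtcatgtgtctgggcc
Cxcl12 (chr6:117168285-117168584, plus): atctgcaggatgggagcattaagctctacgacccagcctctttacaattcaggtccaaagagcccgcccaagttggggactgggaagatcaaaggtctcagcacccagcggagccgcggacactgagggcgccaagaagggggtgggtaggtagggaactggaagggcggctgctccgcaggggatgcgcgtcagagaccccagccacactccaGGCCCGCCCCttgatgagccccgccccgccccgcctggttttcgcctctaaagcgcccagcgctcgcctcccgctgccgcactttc
Cyp2f2 (chr7:27119705-27120004, plus): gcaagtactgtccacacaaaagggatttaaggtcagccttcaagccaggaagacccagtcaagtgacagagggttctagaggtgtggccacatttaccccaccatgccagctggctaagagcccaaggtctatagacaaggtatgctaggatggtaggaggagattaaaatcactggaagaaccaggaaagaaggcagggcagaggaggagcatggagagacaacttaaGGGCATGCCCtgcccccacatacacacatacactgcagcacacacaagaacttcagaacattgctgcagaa
Saa3 and Lcn2 each held 1 match to the C/EBP pattern, which 10.8% of the 32851 promoters in the table hold. Lcn2, Cxcl12 and Cyp2f2 each held 1 match to the kappaB pattern, which 50.8% of all promoters hold, and the 4 windows held no AP-1 match, which 7.81% do. A match is a description of the letters and not a binding site.

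Some genes outside the rule, called profile genes here, were picked for being above the other gated fibroblasts in members of both libraries. Among genes with at least 50 member counts in each library, those most above the other gated fibroblasts in the library where the gap was smaller were led by Cpz and Sectm1a. Cpz, a carboxypeptidase that binds Wnt proteins, was above the other fibroblasts by 2.02 (log2) in the SBM library and 2.70 in the IMQ library. Sectm1a, a small secreted and transmembrane protein, was above them by 2.01 and 2.40. Mmp27 was above by 1.39 and 1.71, and Creb3l3, which in liver encodes a membrane-bound transcription factor of the acute-phase response, by 1.31 and 2.26. Aebp1, a collagen-binding protein, Lum, a keratan sulphate proteoglycan, and Ctsk, the collagen-degrading cathepsin K, were each above by 1.08 to 1.83. Ctsk had 5010.5 CPM in SBM members and 6667 CPM in IMQ members. Among IMQ members it was at 10181 CPM in cluster 4 and 3902 CPM in the rest. These cells were selected and the genes were ranked by their smaller gap, so the gaps carry no test. Lum is also in the pan-fibroblast list, whose sum was itself higher in members than in the other gated fibroblasts. The gaps were not taken against each other fibroblast set alone.

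Between libraries, 1402 of 10535 genes with at least 20 counts were at least 1.5-fold higher in SBM members (13.3%) and 1165 were at least 1.5-fold lower (11.1%), and the median ratio was 0.03. For 770 and 739 of these the counting interval also left 0 out. Without the members in the clusters led by other cell types' genes the counts were 1313 and 1157, and without cluster 3 they were 1332 and 1294. Within clusters the shares past 1.5-fold were larger. In cluster 0, 21.3% of 7348 genes were at least 1.5-fold higher (1562) and 25.1% at least 1.5-fold lower (1848), and the median was -0.09. In cluster 1, 20.9% of 4068 genes lay past that threshold upwards (851) and 15% downwards (611), and the median was 0.08. List counts within clusters are to be read against these shares, and those over all members against 13.3% higher and 11.1% lower.

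Higher in SBM members were genes of several kinds. Lepr, the leptin receptor, had 203 CPM in SBM members and 43.6 CPM in IMQ members (2.21, 1.83 to 2.62). In cluster 1 it had 656 and 73.9 CPM, and in cluster 0 109 and 59.5 CPM, where the interval of the ratio (-0.28 to 2.34) included 0. Ppp1r14a, an inhibitor of myosin phosphatase, had 137 and 42.2 CPM (1.69). In cluster 1 it had only 4 counts in SBM members and 13 in IMQ members, with a ratio of -1.60 (-3.79 to -0.02). Ndufa4l2, a hypoxia-induced mitochondrial protein, had 401 and 157 CPM (1.35), and Aldh3a1, an aldehyde dehydrogenase, 232 and 95.7 CPM (1.28). The profile genes Cpz (613 and 258 CPM, 1.25) and Sectm1a (199 and 74.6 CPM, 1.41) were among the 12 highest as well. Both were higher in SBM members of cluster 0 (1.09 and 1.53) and cluster 1 (0.66 and 1.57). The other highest genes were Cgref1 (1.86), Lsamp (1.58), Hmgn2 (1.52), Trabd2b (1.41), Ccn5 (1.40) and Cldn10 (1.31), and Cldn10 was at -0.08 within cluster 1.

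Lower in SBM members were acute-phase, matrix and chemokine genes. Lcn2, the siderophore-binding lipocalin 2, had 7 counts (2.85 CPM) in SBM members and 141 counts (99.2 CPM) in IMQ members, a ratio of -5.03 (-6.46 to -4.04). Tnc, the wound matrix protein tenascin C, had 41.5 CPM in SBM members and 697 CPM in IMQ members (-4.06, -4.38 to -3.77). Cluster 4 held 80.9% of the Tnc counts of IMQ members, and within clusters 0 and 1 the ratio was -1.63 and -1.81. Cxcl12, which attracts CXCR4-bearing leukocytes, had 433 CPM (407 to 460) in SBM members and 2095 CPM (2020.4 to 2172) in IMQ members, a ratio of -2.27 (-2.38 to -2.17). It was found in 341 of 958 SBM members and 416 of 505 IMQ members. Cxcl12 kept this direction in cluster 0 (261 and 1438 CPM, -2.47) and in cluster 1 (1330.3 and 4421 CPM, -1.73). Mgp, an inhibitor of calcification, was at 48.9 and 415 CPM (-3.08), Prg4, the lubricant proteoglycan, at 27.7 and 210.3 CPM (-2.92), and Gdf10, a ligand of the TGF-beta family, at 13.03 and 109 CPM (-3.05). Il33, an alarmin, was at 23.2 and 104 CPM (-2.16). Its ratio was -2.70 in cluster 1 and 0.12 in cluster 0, where only 1 of its counts came from IMQ members. Others among the 12 lowest were Mmp11 (-2.36), Chl1 (-2.17), Steap4 (-2.08) and Igfbp4 (-2.02). Chl1 was at -0.18 in cluster 0 and -1.08 in cluster 1. Igfbp4 had 18 and 0 counts in cluster 0 and 7 and 3 in cluster 1, too few to give its direction there. Mgp had 9 and 0 counts in cluster 0 and a ratio of -0.73 in cluster 1.

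**Figure D2:**
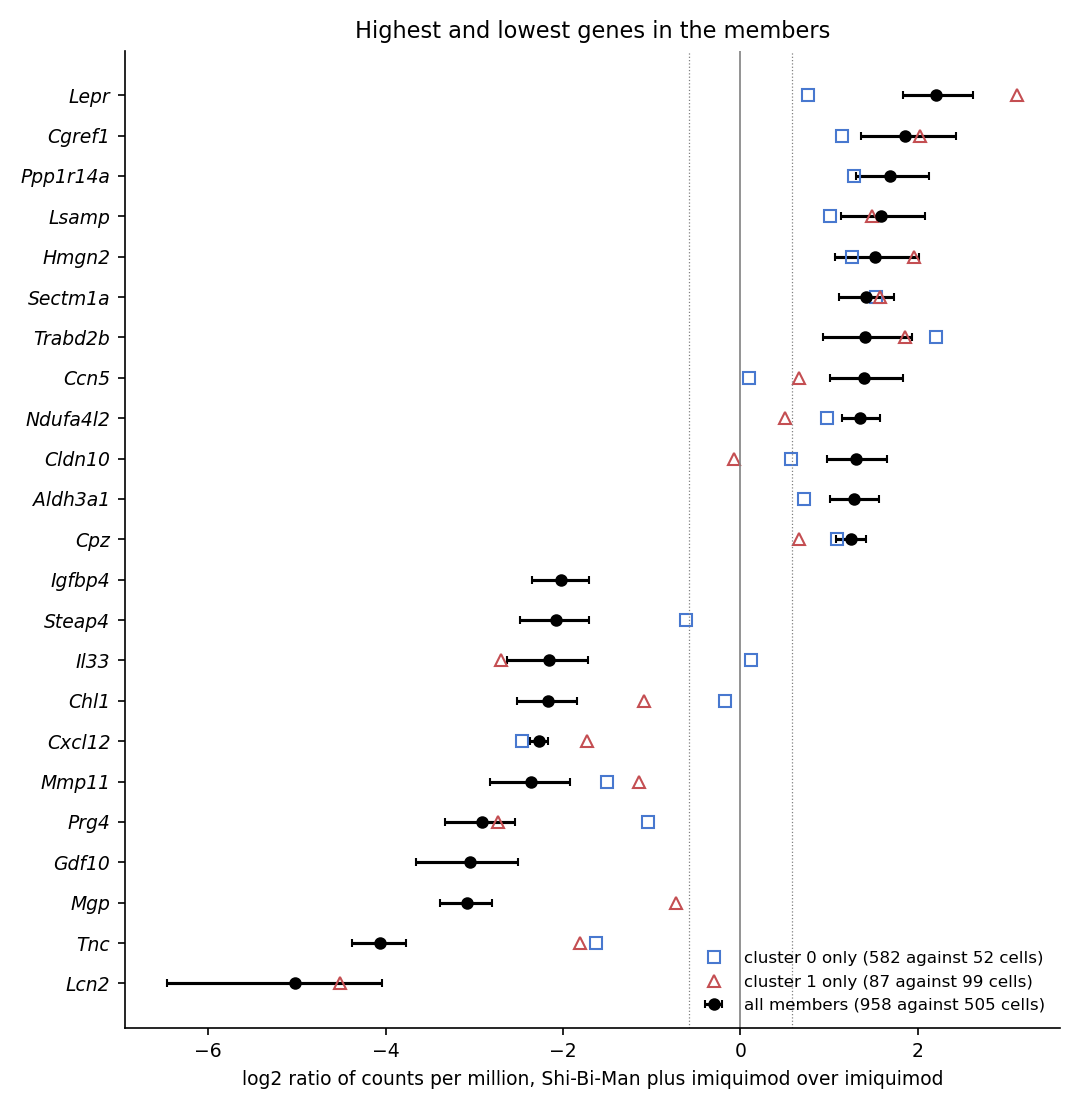
Log2 ratio of CPM in members, Shi-Bi-Man plus imiquimod over imiquimod (x axis), for the 12 highest genes and 11 of the 12 lowest (rows). Black points with 95% counting intervals are all members, and open squares and triangles are members in clusters 0 and 1, drawn where a gene had at least 20 counts there. Dotted lines mark 1.5-fold. Lcn2 and Cxcl12 lie far left in all members and in the clusters drawn, while Il33 in cluster 0 lies near 0.

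Spread over cells differed between genes. Col1a1, the major type I collagen chain, had a median of 244 per 10000 counts in SBM members and 108 in IMQ members, with quartiles of 130 to 413 and 57.6 to 177. Cxcl12 had a median of 0 in SBM members and 13.3 in IMQ members, with upper quartiles of 4.60 and 29.0. Saa3 was concentrated: its upper quartile was 0 in SBM members and 15.6 in IMQ members, and in IMQ members the 10% of cells with most Saa3 held 76.0% of its counts. For Tnc that share was 76.6% in IMQ members, and for Cxcl12 it was 41.1%. The Saa3 and Tnc counts of IMQ members thus came mostly from a minority of cells, while the boxes of Col1a1 in the 2 libraries were shifted as a whole.

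**Figure D3:**
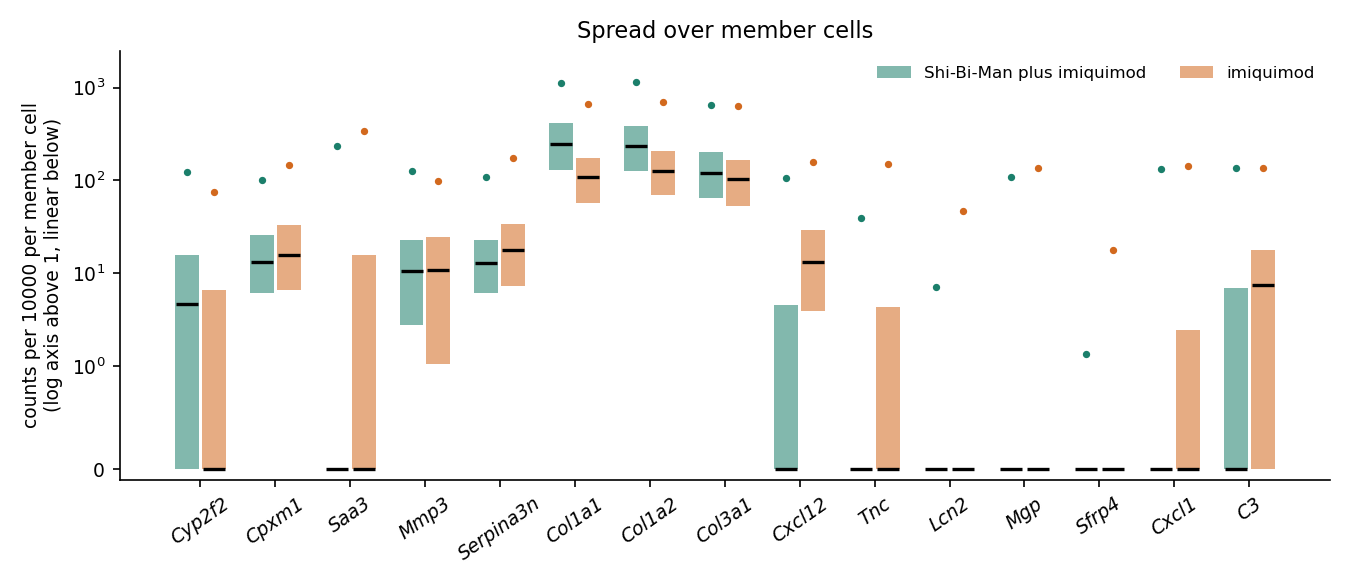
Counts per 10000 per member cell (y axis, log above 1 and linear below) for the rule genes, 3 collagen chains and 7 other genes, Shi-Bi-Man plus imiquimod left of imiquimod. Boxes span the quartiles, black bars are medians and dots are the highest cell. The Col1a1 boxes lie at 130 to 413 and 57.6 to 177, and the Saa3 medians are both 0.

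Type I collagen chains were higher, while fibrillar collagens as a list and their processing enzymes were not. Of 6 fibrillar chains measured, 2 were at least 1.5-fold higher, 1 was lower, and the median was 0.18. Without the gate genes 0 of 3 were higher and 1 lower. The whole list had 2 of 6 higher, 0 lower and a median of 0.40 in cluster 0. In cluster 1 it had 1 higher, 1 lower and a median of -0.12. Col1a1 had 28208 CPM in SBM members and 13833 CPM in IMQ members (1.03), and Col1a2 had 26226 and 14903 CPM (0.82). Both are genes of the gate, whose threshold was the same in both libraries. Col3a1, the third gate gene, had 14601 and 12559 CPM (0.22). The Col1a1 ratio was 1.002 in cluster 0 and 1.03 in cluster 1. Of 19 processing and crosslinking genes 2 were higher and 2 lower (median 0.11), near the shares over all genes. P4ha2, a prolyl hydroxylase subunit, was at 262 and 137 CPM (0.93), and Serpinh1, the collagen chaperone, at 2590 and 1697.5 CPM (0.61). Over all members, other collagen chains went down more often than up, with 1 of 14 higher, 6 lower and a median of -0.54. Among them Col4a1 and Col4a2, the basement membrane chains, were at 311 and 688 CPM (-1.15) and at 156 and 359 CPM (-1.20). Within clusters this list did not mostly go down. It had 3 of 11 higher and 2 lower in cluster 0 (median -0.33), and 0 of 11 higher and 1 lower in cluster 1 (-0.08).

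Acute-phase genes had a median of -0.71, against 0.03 over all genes. Without the rule genes Saa3 and Serpina3n, 9 were measured, 1 higher and 5 lower, with the same median. With them it was 1 higher and 6 lower of 11, against 13.3% and 11.1% of all genes. The lower ones outside the rule were Lcn2, Saa1, Lbp, Cp and Ptx3, and Orm1 was the higher one (0.69). Saa1, whose sequence is close to that of Saa2 so that its counts are uncertain between copies, had 0 counts in SBM members and 22 in IMQ members. Against a floor of 3 counts over the SBM members it was at least 12.7-fold lower in SBM members. Lbp, which carries bacterial lipopolysaccharide, had 112 CPM in SBM members and 274 CPM in IMQ members (-1.30). Neutrophil markers summed to 9.78 CPM in SBM members and 120 CPM in IMQ members, with 5 and 3 of their 8 genes at 0. The same list summed to 67.2 CPM in SBM keratinocytes and 5343 CPM in IMQ keratinocytes, so its sum does not single out neutrophils. Lcn2, which neutrophils also make, was at 6.58 CPM in SBM T cells and 41.4 CPM in IMQ T cells, against 2.85 and 99.2 CPM in the members. The part of free RNA from other cells, keratinocytes included, in the Lcn2 ratio was not tested.

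Complement genes were lower too, with 0 of 11 higher, 6 lower and a median of -0.67. Over all genes 13.3% were higher and 11.1% lower. C3, the central component, had 492 CPM in SBM members and 1269 CPM in IMQ members (-1.37, -1.48 to -1.26). The C3 ratio was -1.13 in cluster 0 and -1.14 in cluster 1. C4b was at 163 and 374 CPM (-1.20) and Cfb, which builds the alternative convertase, at 28.5 and 60.5 CPM (-1.08). Within the clusters 5 of 10 complement genes were lower in cluster 0 and 7 of 8 in cluster 1, and 0 were higher in either. The shares of all genes lower there were 25.1% and 15%.

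Genes that fibroblasts induce with IL-17, TNF or IL-1 were less uniform. Of 25 measured, 10 were lower and 0 higher, against 11.1% and 13.3% of all genes, and the median ratio was -0.46. Steap4, a metalloreductase, had 32.6 CPM in SBM members and 139 CPM in IMQ members (-2.08), Zc3h12a, an RNase that limits IL-17 signalling, 31.4 and 64.0 CPM (-1.03), and Sod2, the mitochondrial superoxide dismutase, 123 and 220.2 CPM (-0.84). Cxcl1, the neutrophil chemokine, had 176 CPM in SBM members and 570 CPM in IMQ members (-1.70), in 132 and 138 cells. Its direction depended on the cells: within cluster 1 it was at 580 CPM in SBM members and 317 CPM in IMQ members (0.87, 0.49 to 1.26). The list as a whole had a median of -0.17 in cluster 0 and 0.29 in cluster 1, where 5 of 20 genes were higher and 1 was lower, against 20.9% and 15% of all genes there. Il6 had 435 and 538 CPM (-0.31), Ccl2 746 and 970 CPM (-0.38) and Ccl7 1255 and 1664 CPM (-0.41), all less than 1.5-fold apart. In cluster 1 these too were higher in SBM members, with ratios of 0.68 (0.38 to 0.98) for Il6, 0.53 (0.33 to 0.73) for Ccl2 and 0.34 (0.19 to 0.49) for Ccl7.

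Chemokines split. Of 14 measured, 1 was higher and 7 lower, with a median of -0.75, but the median was -0.09 in cluster 0 and near 0 in cluster 1. Cxcl12 was the most abundant of the lower ones. The eosinophil chemokine Ccl11 had 696 CPM in SBM members and 609.9 CPM in IMQ members (0.19), and Ccl8 742 and 628 CPM (0.24). In cluster 1 Ccl11 was at -0.56 and Ccl8 at -0.34. Cxcl10, an interferon-induced chemokine, was the higher one, with 191 and 109.7 CPM (0.80). Its ratio was -0.47 in cluster 0 and 1.85 in cluster 1. Of Cxcl16 and its partners, Cxcl16 had 39 and 33 counts (-0.55, -1.25 to 0.17), Adam10 a ratio of -0.32 (-0.72 to 0.10) and Adam17, a shedding protease, 48.9 and 80.9 CPM (-0.73). Adam17 was at 0.46 within cluster 0. Macrophage and dendritic cell markers summed to 527 CPM in SBM members and 1094 CPM in IMQ members, and T cell markers to 39.1 and 141 CPM, with none of their 13 and 10 genes at 0. Their part in the chemokine ratios was not tested.

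Cytokine and growth factor receptors were lower in 7 of 24 cases and higher in 0 (median -0.41), against 11.1% and 13.3% of all genes. In cluster 0, 6 of 21 were lower and 1 higher, near the 25.1% of all genes that were lower there. In cluster 1, 8 of 19 were lower and 1 higher, against 15% of all genes lower there. Il17ra, the shared IL-17 receptor chain, had 50.9 CPM in SBM members and 125 CPM in IMQ members (-1.29, -1.63 to -0.95). Its ratio was -1.49 in cluster 0 and -0.48 in cluster 1, where the interval (-1.145 to 0.162) included 0. Its partner chain Il17rc was at 35.8 and 30.3 CPM (0.24, -0.30 to 0.81). Il1r1 was at 101 and 175 CPM (-0.78) and Tnfrsf1a, the main TNF receptor, at 135 and 196 CPM (-0.54).

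Contractile and wound matrix genes had the lowest median of the 28 lists, -0.94, with 0 of 20 higher and 11 lower. Over all genes the shares were 13.3% and 11.1%. Besides Tnc, Ccn2, a TGF-beta-induced matricellular protein, was at 11.4 CPM in SBM members and 54.2 CPM in IMQ members (-2.23), and Acta2, smooth muscle actin, at 13.03 and 40.1 CPM (-1.61). Postn was at -1.45, Tgfb1 at -1.07 and Fap at -1.001. In cluster 0 the list had 1 of 15 higher and 7 lower (median -0.55), and in cluster 1 it had 0 of 13 higher and 8 lower (-0.66). Of all genes 25.1% were lower in cluster 0 and 15% in cluster 1. Pericyte and smooth muscle markers, a list that includes Acta2, summed to 90.8 CPM in SBM members and 122 CPM in IMQ members, with 1 of 10 genes at 0 in each. Their part in the Acta2 ratio was not tested. Of 13 matrix proteases and inhibitors 5 were lower and 0 higher (median ratio -0.40): Timp1, the inhibitor induced in wounds, had 89.6 and 271 CPM (-1.59), and Adamts5, an aggrecanase, 128 and 262 CPM (-1.04).

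Papillary dermis genes had the highest median, 0.55, with 6 of 12 higher and 2 lower, against 13.3% and 11.1% of all genes. The higher ones were mostly feedback genes of Wnt signalling. Nkd1, which binds Dishevelled, had 112 counts (45.6 CPM) in SBM members and 16 counts (11.3 CPM) in IMQ members (1.98, 1.26 to 2.88). Nkd2 was at 55.4 and 29.6 CPM (0.90), Apcdd1 at 0.89, Wif1 at 0.85 and Axin2 at 0.60. Prdm1, a transcription factor of papillary progenitors, rested on 55 and 11 counts (1.48). One of the 2 lower genes was Col23a1, a collagen chain, at 21.2 CPM in SBM members. In IMQ members Col23a1 was at 73.5 CPM in cluster 4 and 20.1 CPM in the rest. The separate list of Wnt and BMP ligands and antagonists had 3 of 21 higher, 6 lower and a median of -0.13, and Wnt5a, one of its higher genes, was at 66.0 and 26.0 CPM (1.33). In cluster 0 the papillary list had 5 of 11 higher and 0 lower (median 0.58), and in cluster 1, with 5 genes measured, 1 was higher (median 0.12). Of all genes 21.3% were higher in cluster 0 and 20.9% in cluster 1.

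Interferon genes had a median of 0.23, with 6 of 29 higher and 1 lower. Ifi35 was at 44.8 CPM in SBM members and 19.0 CPM in IMQ members (1.22). In cluster 0 the list's median was -0.14, with 3 of 23 higher and 5 lower, against 21.3% and 25.1% of all genes there. Nuclear genes of oxidative phosphorylation had a median of 0.18 with 2 of 29 higher and 0 lower, and in cluster 1 a median of 0.44 with 10 of 28 higher. Without the members in cluster 4 it was -0.10. In xenobiotic metabolism 4 of 23 genes were higher and 4 lower (median -0.12). Next to Cyp2f2, Cyp1b1 was at 30.1 and 112 CPM (-1.89) and Cyp7b1, which hydroxylates oxysterols, at 33.0 and 98.5 CPM (-1.57), so the P450 genes did not move together. Adventitial fibroblast genes had a median of -0.06 with 1 of 11 higher and 2 lower. In cluster 0 the list had 0 of 10 higher and 4 lower (median -0.28), against 25.1% of all genes lower there. In cluster 1 it had 0 of 10 higher and 5 lower (-0.63), against 15%. Pi16, which marks adventitial fibroblasts, had 1971 CPM in SBM members and 2059 CPM in IMQ members (-0.06), and Dpp4 117 and 97.1 CPM (0.26). Within clusters Pi16 was lower, at -0.53 (-0.69 to -0.37) in cluster 0 and -0.68 (-0.83 to -0.53) in cluster 1. Dpp4 was at 0.36 and -0.57 there, with intervals that included 0. Immediate early and heat shock genes, which dissociation of tissue can induce, had 1 of 21 higher and 0 lower (median 0.01).

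**Figure D4:**
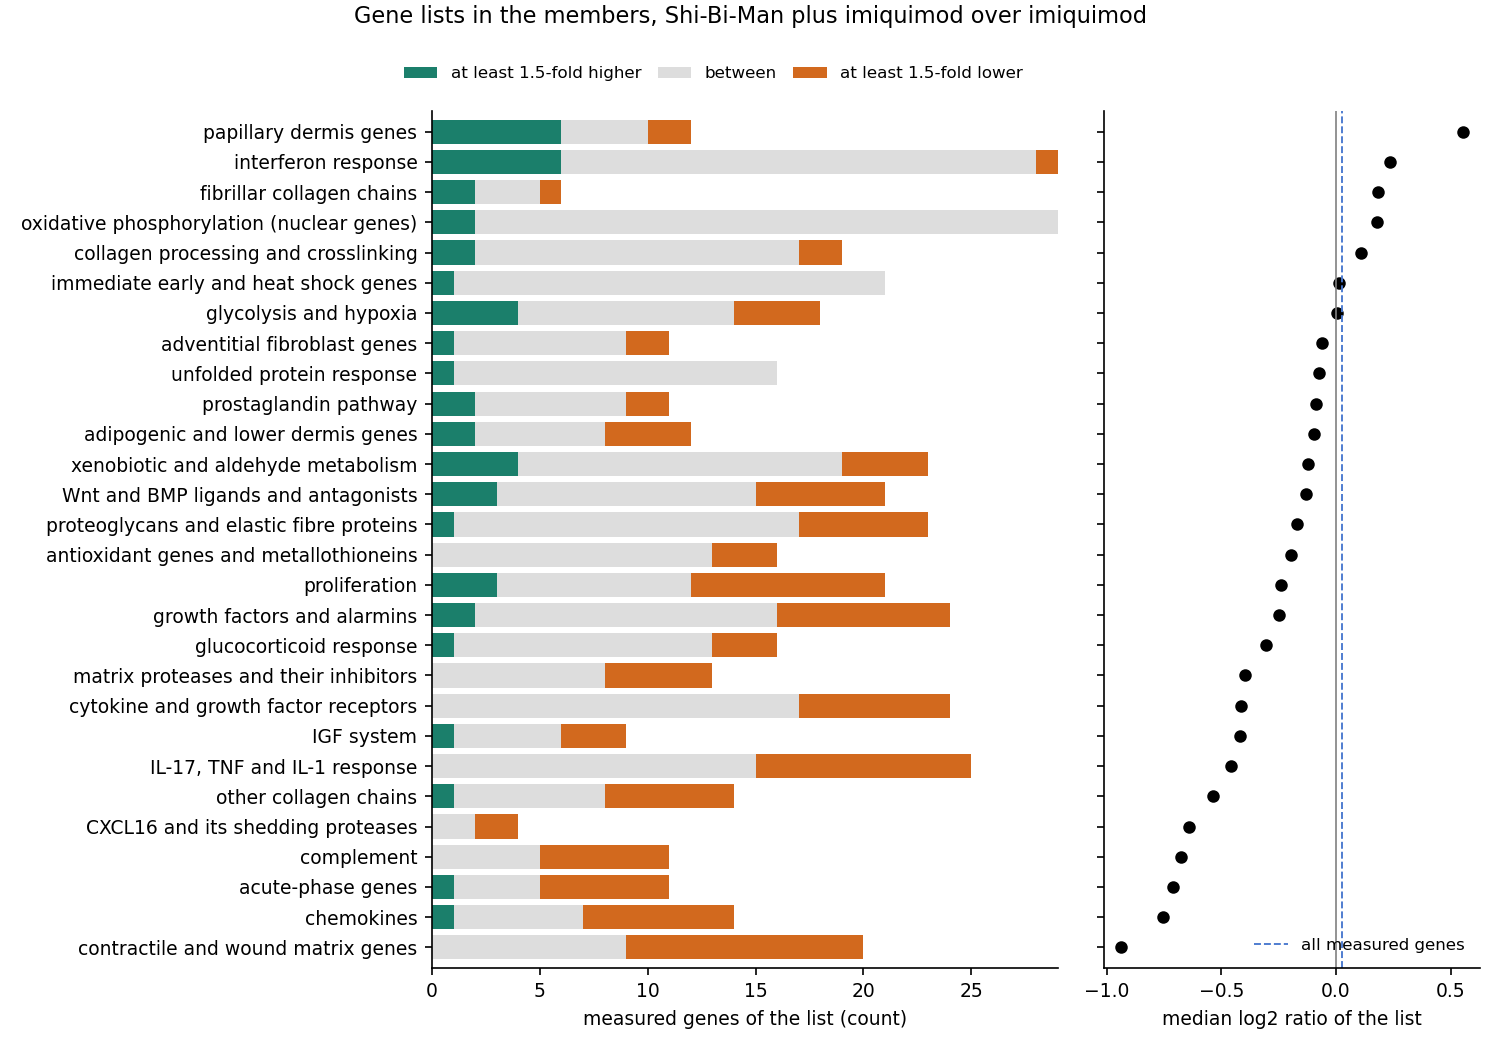
Left, number of measured genes in each of 28 lists that were at least 1.5-fold higher (green), between (grey) or at least 1.5-fold lower (orange) in members, Shi-Bi-Man plus imiquimod over imiquimod. Right, median log2 ratio of each list, with the median of all measured genes, 0.03, as a dashed line. Contractile and wound matrix genes lie lowest at -0.94 and papillary dermis genes highest at 0.55.

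Many of these ratios were also present in the other gated fibroblasts of the same libraries, and some differed. Lcn2 had a ratio of -5.03 in members and -4.82 in the other fibroblasts, and C3 -1.37 and -1.57. Saa3 had -5.73 and -4.74, and the difference of -0.99 had an interval of -2.25 to 0.27. Tnc was further down in all members (-4.06 and -1.64, difference -2.42, interval -2.77 to -2.08). In members of clusters 0 and 1 it was at -1.63 and -1.81, near its ratio in the others. Cluster 4 held 80.9% of the Tnc counts of IMQ members. Cxcl12 was also further down in members (-2.27 and -1.34, difference -0.94, -1.09 to -0.78). Chl1, a neural adhesion molecule, was at -2.17 in members and 0.24 in the others, where its interval included 0. In members of clusters 0 and 1 it was at -0.18 and -1.08. Steap4 was at -2.08 and -0.18, but at -0.62 and -1.41 in members of clusters 0 and 1, with intervals that included 0. Il17ra was at -1.29 in members and -0.40 in the others (difference -0.89, -1.30 to -0.48). Cyp2f2 was higher in both and by more in the other fibroblasts (1.47 and 2.56). Lepr was higher by more in members (2.21 and 1.21). Pi16 was at -0.06 in all members and -0.83 in the others, but at -0.53 and -0.68 in members of clusters 0 and 1. These differences compare cells of the same 2 libraries and carry counting error only, and for the genes of the rule the split into members and others was made on their values.

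**Figure D5:**
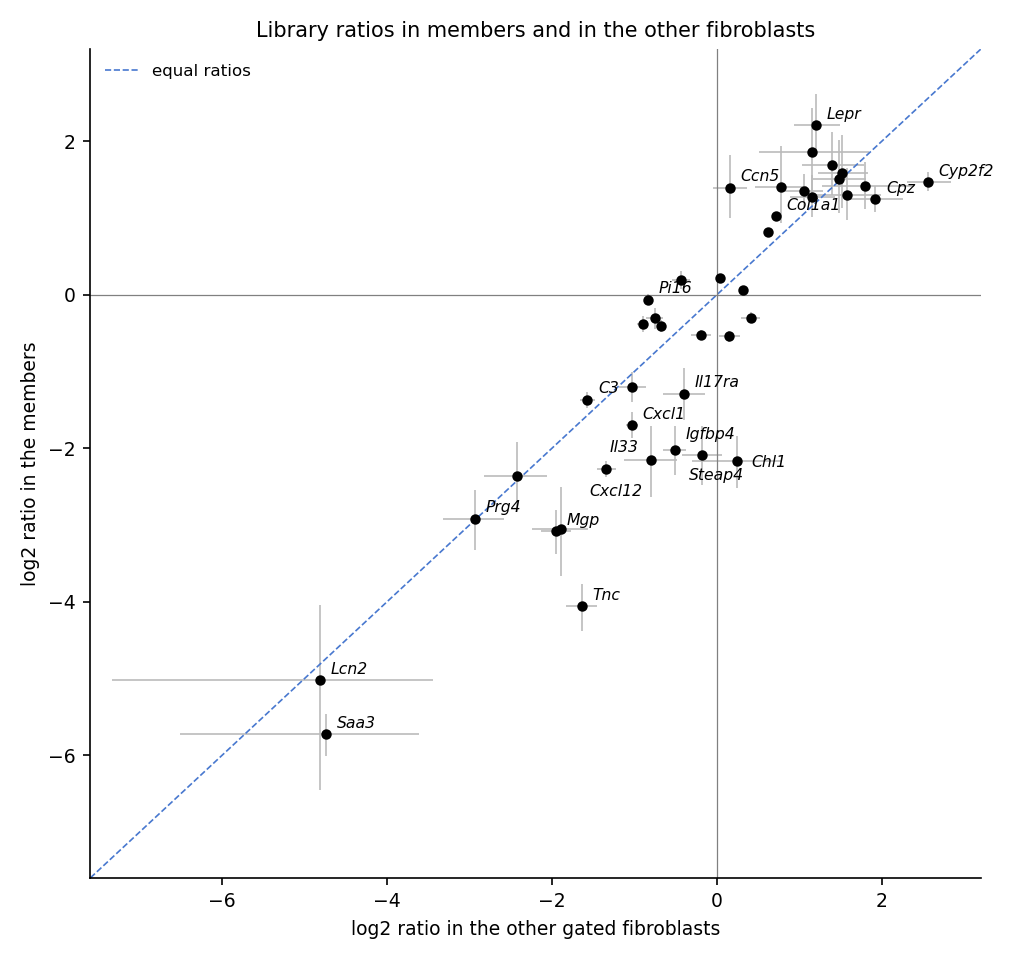
Log2 ratio, Shi-Bi-Man plus imiquimod over imiquimod, in the members (y axis) and in the other gated fibroblasts (x axis) for the 12 highest genes, 11 of the 12 lowest and 18 further named genes, with 95% counting intervals. The dashed line marks equal ratios. Tnc, Chl1 and Steap4 lie below the line, while Lcn2 and C3 lie near it and Cyp2f2 lies to its right.

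Markers of other cell types were present in members, those of keratinocytes most of all, and several sums differed between libraries. Keratinocyte markers summed to 5562 CPM in SBM members and 3320 CPM in IMQ members, with none of 12 at 0. The same list summed to 6708 and 2869 CPM in the other gated fibroblasts and to 16804 and 9269 CPM in T cells. Blood endothelial markers summed to 56.6 and 120 CPM and melanocyte markers to 88.0 and 173 CPM in members, with 1 gene of each list at 0 in each library. Of the 12 keratinocyte markers 6 were at least 1.5-fold higher in SBM members and 4 lower, so the sum does not stand for each gene: Krt10 was at 2.74 and Krt14 at -1.33. The part of such markers in ratios of genes that those cells also express was not tested.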

How the data were processed

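The authors deposited whole-number counts per gene and cell barcode for 2 libraries, as matrices of 55471 gene entries, per the file headers. The submitters' processing notes name the builds mm10 and GRCm38; the aligner and counter are not given in the sources used here. Entries sharing a symbol (231) were summed. Members, gene lists and named genes were chosen with earlier results of these data known. Member counts were summed per library and scaled to CPM, with 0.5 added to each count for log2 ratios. Genes with at least 20 counts were measured, and 1.5-fold counted as higher or lower. With 1 library per group no test was run. Genes named were the 12 highest and 12 lowest ratios among genes with at least 50 counts, a mean of at least 50 CPM and at least 50% of the whole library's CPM, outside the rule; the 15 profile genes; up to 4 genes per list; and fixed genes. Others, such as Orm1, Postn and Apcdd1, were named as examples after their values were seen. A few genes are not reported here. Gated cells were clustered with scanpy 1.11.5 (2000 variable genes, 30 components, 15 neighbours, Leiden resolution 0.5). Doublets were kept in the main values. Alternatives changed filters, rule genes, scaling (edgeR 4.0.16, DESeq2 1.42.0 factors), thinning to 1000 counts and free RNA (5% of the library profile subtracted). Scripts were tested on simulated data. Promoters came from RefSeq, which had one for 8097 of 10535 measured genes.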

Additional observations from a re-analysis of the deposited data

Results flagged for a closer look

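The differences here were not tested. Only the genes chosen for naming were searched, not all genes measured. In 5 of them the ratio of SBM over IMQ had opposite signs in members and in the other gated fibroblasts of the same libraries. Each ratio was past 1.5-fold, with a counting interval that excluded equal levels. Fbn2, a microfibril protein, was at -1.118 in members and 0.59 in the others. Ptn, the growth factor pleiotrophin, was at -1.339 and 0.66, and 58.1% of its counts in IMQ members came from 1 cell. Ccnb1, a mitotic cyclin, was at -1.216 and 0.64, and Nusap1, a spindle protein, at -1.196 and 0.77. Lrrc15, which was one of the genes of another fibroblast set in the rule, was at -0.800 and 0.70, so its level in members was shaped by the selection. Few cells carried these counts. Fbn2 was found in 15 SBM and 17 IMQ members, Ptn in 20 and 11, Ccnb1 in 8 and 8, and Nusap1 in 15 and 11.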

How the results depend on the processing

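No paired analysis was possible because each group is 1 library. The log2 ratio of the member share lay between 1.28 and 1.593 of retained cells and between 0.42 and 0.723 of gated fibroblasts over the alternatives run, and it moved beyond its counting interval with Serpina3n left out of the rule (1.593 and 0.723). The numbers of genes at least 1.5-fold higher and lower were 756 and 660 with at least 50 counts, 5172 and 4567 with no filter on low counts, and 851 and 611 in cluster 1 alone, and 1848 were lower in cluster 0 alone. By construction fewer genes were measured with at least 50 counts (7841), more with no filter (19478), and fewer cells entered within a cluster. Of the genes named that were past 1.5-fold in all members and had at least 20 counts in the setting, those whose direction turned were Il33 (0.120), Adam17 (0.461) and Cxcl10 (-0.472) in cluster 0, Cldn10 (-0.076), Cxcl1 (0.869) and Lrrc15 (1.228) in cluster 1, and Ccnb1 (0.333) as a mean over cells; the cause was not tested. Counting genes of any size of ratio, 8 of 73 turned in cluster 0 and 13 of 65 in cluster 1, where they include Il6 (0.68), Ccl2 (0.53), Ccl7 (0.34) and Ccl11 (-0.56). List medians past 1.5-fold kept their direction under the 19 settings chosen at the outset, and 511 of 532 values over the 28 lists moved by less than 0.2 (log2), while medians near 0, such as that of glycolysis genes, changed sign. Under the settings added later 128 of 166 values moved by less than 0.2 and 38 by more. The cluster settings and the removal of 1 Saa3-rich cell were chosen after seeing the data. Scrublet called 83 SBM cells and 0 IMQ cells, so its threshold did not work in the IMQ library and the highest 8% of scores were removed instead. Genes with few counts in either library, such as Nkd1 and Cxcl16, have wide intervals, and with 1 library per group differences between animals, dissections and libraries cannot be told apart from the treatment.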
